A study of Homo sapiens with 32 samples.

Results

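NTera2 cells at passage 31 were compared with the same line at passage 27, using 8 of the 32 libraries of the series. The 8 are all libraries of replicate numbers 4 (passage 31) and 1 (passage 27) by title, so they were chosen by label and not by any measured value. NTera2 is an established human line derived from embryonal carcinoma, a germ cell cancer. Each passage gave 4 libraries of polyadenylated RNA, 1 for each treatment. The treatments lasted 48 h, in medium with serum. They were vehicle (D-PBS), RANKL and OPG at 1 µg/ml each, and denosumab, for which the protocol names no dose because it lists RANKL again in that place. RANKL activates the receptor RANK. OPG and the antibody denosumab bind RANKL and keep it from RANK. The other NTera2 libraries, 4 at passage 29 and 4 at passage 30, had the same treatments and serve here to place the difference in time. The other line of the series, the seminoma-derived TCam-2, was used over passages 118 to 122. The labels give 4 independent experiments, and each NTera2 experiment has its own passage number. The 4 libraries of a passage are therefore wells of 1 experiment, passage and experiment cannot be told apart, and p-values measure the spread of the passage difference over 4 treated wells.

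Embryonal carcinoma cells resemble pluripotent stem cells. They depend on a network of transcription factors, with OCT4 (encoded by POU5F1), SOX2 and NANOG at its centre, and on genes that these factors keep active, such as LIN28A, DNMT3B, DPPA4, L1TD1, TDGF1 and GDF3. NODAL and FGF signals sustain this network, and NTera2 is known for turning into neuron-like cells when it is lost. Cultured pluripotent cells can drift over passages, by selection of faster growing variants or by a gradual loss of the undifferentiated state.

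The promoters of NANOG and GDF3 are shown because both genes, which lie near each other on the short arm of chromosome 12, were lower at passage 31, and because NANOG carries the joint element that OCT4 and SOX2 are known to bind. Each sequence is RefSeq, GRCh38.p14, 5′ to 3′ on the gene's own strand, from 250 bases before to 50 bases after RefSeq's start of the gene. For GDF3 this is also the start in the deposited table, whereas for NANOG the table's gene starts 1608 bases further upstream, so that the NANOG window lies within the counted gene. Capitals mark matches to an octamer-like motif (ATGCAAA, or TTTGCAT on the other strand) or a SOX-like motif (CATTGT, or ACAATG on the other strand).
NANOG, plus strand, chr12:7789152-7789451: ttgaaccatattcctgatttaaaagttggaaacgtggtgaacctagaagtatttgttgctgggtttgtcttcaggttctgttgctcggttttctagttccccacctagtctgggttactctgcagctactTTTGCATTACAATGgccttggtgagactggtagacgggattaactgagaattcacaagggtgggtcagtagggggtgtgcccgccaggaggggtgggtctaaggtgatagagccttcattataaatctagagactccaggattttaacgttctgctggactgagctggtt
GDF3, minus strand, chr12:7695726-7696025: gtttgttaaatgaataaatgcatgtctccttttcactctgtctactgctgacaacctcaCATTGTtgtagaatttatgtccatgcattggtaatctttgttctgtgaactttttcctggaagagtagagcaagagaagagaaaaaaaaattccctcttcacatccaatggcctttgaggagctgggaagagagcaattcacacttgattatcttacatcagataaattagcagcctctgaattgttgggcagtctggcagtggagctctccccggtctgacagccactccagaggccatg
NANOG held the octamer-like motif followed by 1 base and the SOX-like motif, beginning 120 bases before the start. The 2 motifs in this order and relative orientation, with at most 1 base between them, stood in 3 of 27305 RefSeq promoters of that length (0.011%). Other orders and orientations of the 2 were not counted. GDF3 held a SOX-like motif alone, 191 bases before the start. Among all promoters, 4.51% held the octamer-like motif and 11% the SOX-like motif. Of the 39 genes lower at passage 31, 24 had a promoter in the table by gene identifier, symbol or older symbol. Of those, 2 held the octamer-like and 4 the SOX-like motif. Of the 41 higher genes, 25 had one, and 1 and 3 held the motifs. A match is a match of letters, not a bound site.

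The passage 31 libraries held 13669347 to 16206473 counts and the passage 27 libraries 12060056 to 30499538. The RNA integrity number (RIN) was 8.9 to 9.4, with none given for the passage 27 vehicle library. Total counts, genes with counts and the share of mitochondrially encoded mRNA did not separate the passages (two-sided exact permutation p = 0.543, 0.943 and 0.629, each 0.943 after adjustment over the 3, where 0.0286 is the smallest p that 4 against 4 allows). The passage 27 denosumab library and the passage 31 RANKL library stood apart from the others in a principal component analysis, and had the fewest genes with counts, 21729 and 22364. All 8 libraries had the markers of embryonal carcinoma, among them POU5F1 at 1160 to 1390 CPM (read counts scaled to library size) and LIN28A at 2060 to 2240 CPM. ZFP42, also a stem cell gene, had 0 counts. Of 11 markers of the TCam-2 seminoma line, TCL1A (0 counts), PRAME and SOX17 (0.361 CPM at most) and 6 others stayed under 2 CPM, while TFAP2C (20.8 to 27.9 CPM at passage 27) and CXCR4 (4.42 to 9.37 CPM) were present. Of 9 markers of immune cells PTPRC had 0 counts and none passed 2.10 CPM. Of 9 Sertoli, Leydig and endothelial markers, CYP17A1 (0 counts), INHA, INSL3, PECAM1 and CDH5 stayed under 2 CPM. Present were AMH (26.9 to 63.3 CPM), STAR (22.4 to 29.7 CPM), SOX9 (4.43 to 6.34 CPM) and VWF. VWF stood at 6.75 to 11.1 CPM at passage 27 and 12.5 to 14.7 CPM at passage 31, and did not pass the edgeR test of the passages. Of 10 fibroblast markers, FAP (0 counts), DCN, LUM, COL3A1 and COL1A2 stayed under 1 CPM, while THY1 (273 to 327 CPM), PDGFRB (33.9 to 45.8 CPM), COL1A1 (23.4 to 33.5 CPM), PDGFRA (5.49 to 7.78 CPM) and POSTN were present.

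Passage 31 differed from passage 27 in few genes and by small amounts. Of 16681 genes tested, 80 (0.48%) passed an adjusted p of 0.05 in edgeR with treatment as a block, 41 higher (0.246%) and 39 lower (0.234%) at passage 31. Genes of a pluripotency list made up 8 of the 39, and the matrix genes FN1, TNC and POSTN were also lower. The higher genes included transcription factors of the early embryo, the collagen gene COL2A1 and copies of ribosomal protein genes. The median size of the 80 log2 fold changes was 0.40, and 5 genes reached 1 in size: LHX5 and RPS27P8 were higher, and POSTN and the unnamed genes ENSG00000225721 and ENSG00000269968 were lower. All 4 treatments gave the same direction in 79 of the 80. The passages did not overlap in CPM in 69 of the 80, against 959 of all genes tested (5.75%). Both counts follow largely from how the 80 were chosen, by a test of these same 8 libraries, and are no separate support. The count rested on the OPG and vehicle wells. Without the OPG library of either passage 13 genes were called, without the vehicle library of either passage 38, and 39 without the treatment block. The vehicle and OPG libraries alone gave 193, in a fit added after the data were seen. That fit has few libraries from which to estimate the spread. Across genes the log2 fold change ran with GC content (Spearman rho 0.282) and with gene length (rho -0.228), genes not being independent of each other. The lower genes had a median GC content of 46.0% and the higher genes of 56.8%, beside 49.4% for all genes tested. With offsets fitted for GC content and length together (the GC and length correction in what follows) 65 genes were called, among them 30 of the 39 lower and 17 of the 41 higher genes. All 80 kept their direction under each alternative tried.

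**Figure D1:**
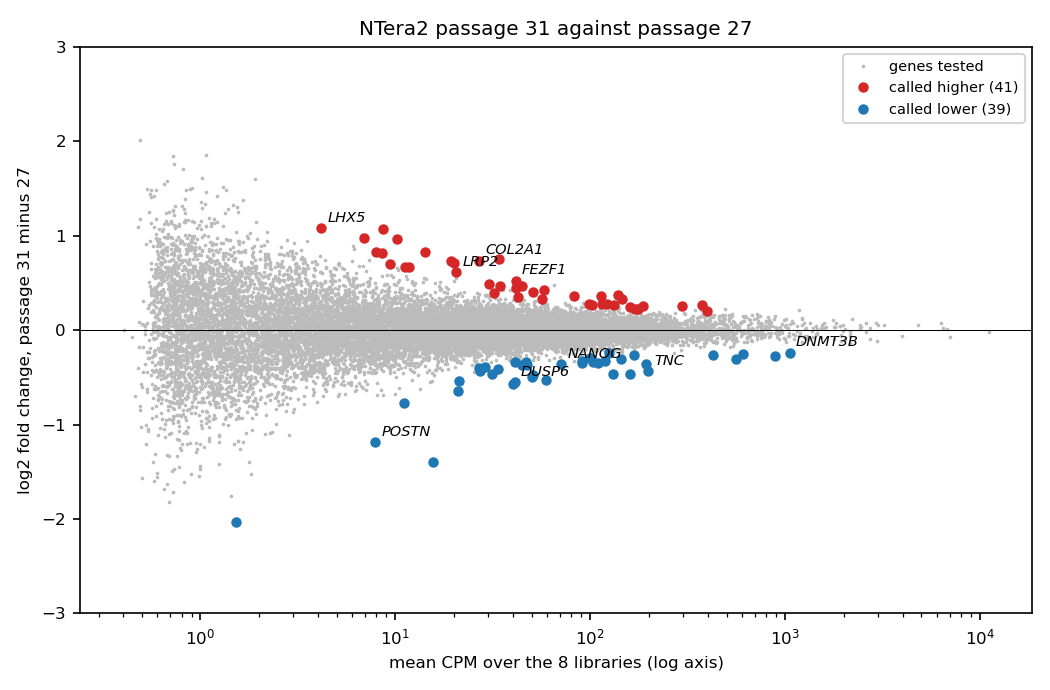
Log2 fold change of passage 31 minus passage 27 (y axis) against the mean CPM over the 8 libraries (x axis, log scale) for each gene tested, with the 41 genes called higher in red and the 39 called lower in blue. The called genes lie at the edges of the cloud, most of them between 0.2 and 1 in size, and POSTN and LHX5 are among the 5 that reach 1.

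Of the pluripotency network, NANOG and 7 of its associated genes were lower at passage 31, whereas POU5F1 and SOX2 did not pass the test. Of 20 listed genes tested, 8 were called lower and 0 higher, beside 0.234% of all genes called lower. The list's median log2 fold change was -0.24, beside 0.0046 for all genes, and 19 of 20 members were negative. GDF3, a TGF-beta family ligand typical of undifferentiated cells, stood at 152, 150, 152 and 150 CPM at passage 27 in the vehicle, RANKL, OPG and denosumab wells, and at 109, 121, 105 and 101 CPM at passage 31. The groups lay far apart, with a log2 fold change of -0.47 (SE 0.0541, edgeR adjusted p = 0.000303). NANOG (chromosome 12, 7787794 to 7795095 in the deposited table), a core transcription factor, stood at 71.7, 88.6, 80.9 and 77.9 CPM in the same wells at passage 27 and at 55.6, 66.8, 66.8 and 58.4 CPM at passage 31. Each NANOG value at passage 31 was below each at passage 27 (log2 fold change -0.36, SE 0.0612, edgeR adjusted p = 0.00746), although the vehicle well of passage 27 came close to the highest of passage 31.

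L1TD1, an RNA-binding protein derived from a LINE-1 element, stood at 581 to 652 CPM at passage 27 and 476 to 521 CPM at passage 31 (log2 fold change -0.31, SE 0.0397, edgeR adjusted p = 0.000862). ESRG, a noncoding RNA transcribed from an endogenous retrovirus, fell from 969 ± 41.9 to 800 ± 40.4 CPM (SD, n = 4 libraries in this and all such pairs). DNMT3B, the de novo DNA methyltransferase of early embryonic cells, went from 1143 ± 36.9 to 967 ± 36.6 CPM, a log2 fold change of -0.24. TERF1, a telomere-binding protein that is abundant in stem cells, went from 122 ± 3.70 to 96.1 ± 4.21 CPM. The last 2 called members, DPPA4 (662 ± 12.7 and 555 ± 23.2 CPM), a chromatin-associated factor, and TDGF1 (159 ± 8.63 and 129 ± 5.09 CPM), a co-receptor for NODAL, are outside the rule for named genes and were named after their values were seen. In none of the 8 did the passages overlap, which held for 69 of all 80 called genes and 5.75% of all genes tested. This follows largely from choosing the 8 by a test of the same libraries.

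The other core factors did not pass the test. POU5F1 was at 1292 ± 83.7 CPM at passage 27 and 1233 ± 78.9 CPM at passage 31, with a log2 fold change of -0.06 (edgeR adjusted p = 0.552). SOX2 and LIN28A, an RNA-binding protein that blocks let-7, both had log2 fold changes of -0.01, and SALL4 had -0.03. DPPA2, the partner of DPPA4, had the most negative value of the list, -0.997, at 3.27 and 1.62 CPM, and was not called. The 8 calls held without each denosumab library and without each RANKL library. Without an OPG library GDF3 and L1TD1 were the called members, and without a vehicle library 7 were called, TDGF1 being lost. After the GC and length correction the same 8 were called and the median was -0.235. In the vehicle and OPG libraries alone, a small fit added after the data were seen, 8 were called, 16 of 20 members were negative, and the median was -0.13. A separate list of embryonal carcinoma and surface markers had 0 of 13 called by edgeR, beside 0.48% of all genes. Its median was -0.07, with 10 members negative and 3 positive, and 1 was called lower after the GC and length correction. NANOG has near-identical copies that may share its reads, and NANOGP8 stood at 18.5 and 14.8 CPM.

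**Figure D2:**
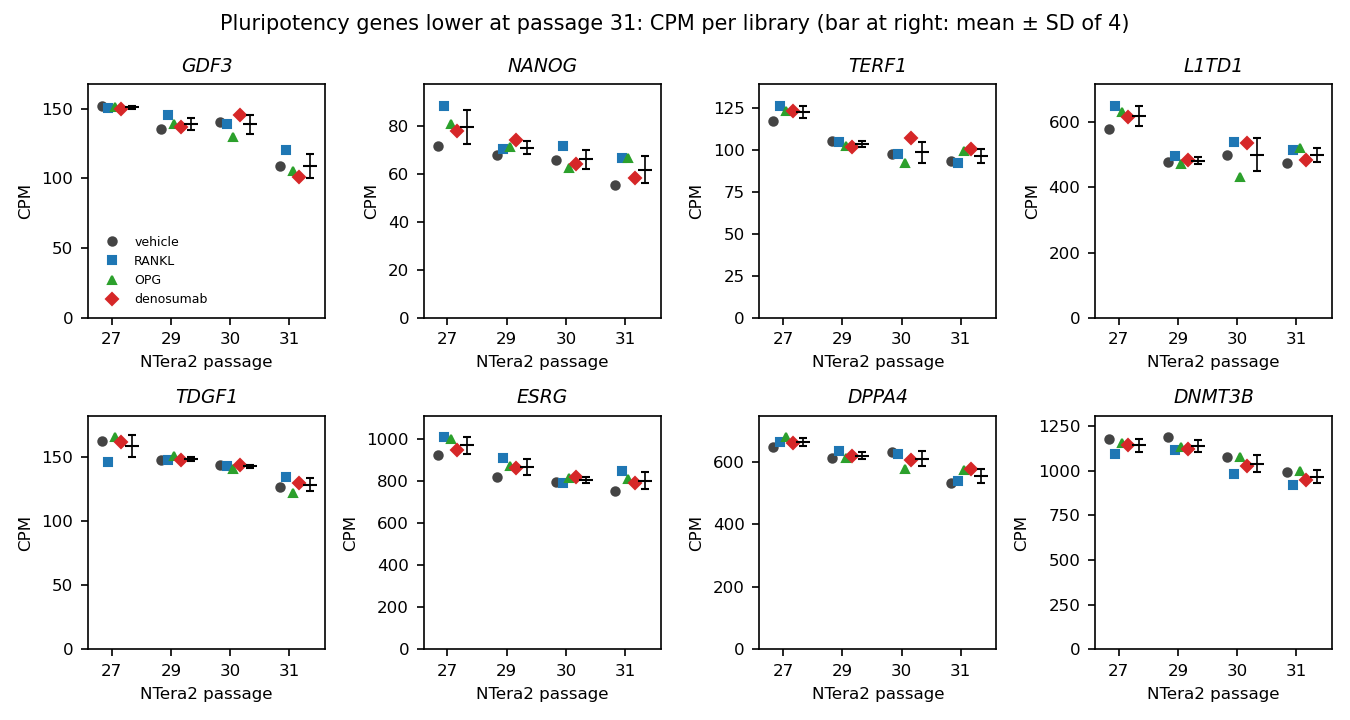
CPM (y axis, from 0) of the 8 called pluripotency genes in each NTera2 library by passage (x axis), 1 symbol per treatment, with the mean ± SD of the 4 libraries drawn to the right of each group. All 4 libraries of passage 31 lie below all 4 of passage 27 in each panel, and GDF3 stays near 139 CPM at passages 29 and 30 before the lowest values at passage 31.

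HHLA1, whose transcripts in pluripotent cells start in a HERV-H retroviral element, went from 70.01 ± 2.50 to 48.5 ± 3.04 CPM (log2 fold change -0.53, edgeR adjusted p = 0.000862). With ESRG it made the 2 called lower of 9 tested retrovirus-derived genes and pluripotency noncoding RNAs, beside 0.234% of all genes. Of the 9, 8 were negative, with a median of -0.42, or -0.24 in the vehicle and OPG libraries alone. Among 13 genes of the NODAL, GDF and TGF-beta axis, GDF3 and SKIL, a SMAD repressor, were called lower, beside 0.234% of all genes. The median was -0.09. SKIL stood at 52.0, 51.1, 64.8 and 67.5 CPM at passage 27 and at 37.1, 38.3, 45.3 and 44.7 CPM at passage 31. The OPG and denosumab wells were the higher pair at both of these passages, and the passage difference was -0.50 (SE 0.0697). They were not the higher pair at passage 29 (45.35, 51.77, 50.13 and 48.59 CPM in the same order of wells) or passage 30 (46.23, 48.83, 45.11 and 49.89 CPM).

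FGF signalling through ERK is read from its feedback genes. DUSP6, the phosphatase that removes phosphate from ERK, stood at 48.4, 46.2, 46.2 and 54.2 CPM at passage 27 and at 39.1, 31.9, 33.6 and 28.2 CPM at passage 31 (log2 fold change -0.55, SE 0.0926, edgeR adjusted p = 0.00746). It was the 1 called member of 18 tested, beside 0.48% of all genes, and 14 of the 18 were negative with a median of -0.16. The transcription factor ETV5 (-0.22, edgeR adjusted p = 0.0983) and the feedback inhibitor SPRY1 (-0.35, edgeR adjusted p = 0.137) did not pass. Neither overlapped between passages, which held for 5.75% of all genes tested. IL17RD, which also dampens FGF signalling, was called lower outside the list, at 115 ± 8.13 and 91.3 ± 5.09 CPM, and was named after its value was seen. The calls of SKIL, DUSP6 and IL17RD were lost without either OPG library, and that of IL17RD also without either vehicle library.

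Of 25 matrix and integrin genes tested, FN1 and TNC were called lower and 0 higher, beside 0.234% and 0.246% of all genes. The list median was -0.02. A further matrix gene, POSTN (periostin) of the fibroblast list, stood at 10.9, 10.2, 11.2 and 11.6 CPM at passage 27 and at 3.76, 5.39, 4.91 and 5.28 CPM at passage 31. That log2 fold change of -1.18 (SE 0.163, edgeR adjusted p = 0.00151) was the most negative among the called genes with a symbol. FN1, fibronectin, went from 185 ± 7.51 to 134 ± 7.07 CPM (-0.46, SE 0.0487, edgeR adjusted p = 0.00011). TNC, tenascin C, went from 227 ± 11.8 to 168 ± 4.68 CPM (-0.43, SE 0.0461, edgeR adjusted p = 0.00011). The calls of POSTN, FN1 and TNC held without each library in turn and after the correction. Of 5 fibroblast markers tested POSTN was the 1 called, beside 0.48% of all genes.

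Other lower genes had varied roles. GNB4, a G protein subunit, went from 25.5 ± 1.85 to 16.3 ± 2.34 CPM, a log2 fold change of -0.65. AK4, a mitochondrial adenylate kinase, had -0.53, METTL7A -0.47, and DYSF, a membrane repair protein, -0.46. PTPRZ1, a receptor phosphatase of neural progenitors, was lower at 216 ± 4.59 and 169 ± 17.4 CPM. CCND2, a D-type cyclin on 12p, went from 182 ± 15.6 to 151 ± 9.11 CPM. MT-ATP8 had -0.27, but it overlaps MT-ATP6 (-0.14, edgeR adjusted p = 0.110) on 1 strand, and its call was lost after the correction (edgeR adjusted p = 0.442), as was that of CCND2 (0.0519). PTPRZ1 kept its call without each library in turn. Without an OPG library the other named genes of this paragraph lost theirs. DYSF lost its call also without a RANKL library, AK4 without a vehicle library, and CCND2 without a vehicle or a denosumab library. The smallest edgeR adjusted p of all genes (3.83e-05) belonged to ENSG00000269968, at 22.8 ± 5.46 and 8.50 ± 1.17 CPM. This gene lies opposite GAPDH, which stood at 11160 and 10990 CPM, and the strand setting of the counting was not given, so its value is uncertain, although its call held without each library in turn.

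The higher genes included several that act in the early embryo. FEZF1, a transcription factor of the forebrain, stood at 35.4, 29.6, 35.7 and 35.4 CPM at passage 27 and at 53.04, 44.8, 45.1 and 52.05 CPM at passage 31, with no overlap (log2 fold change 0.52, SE 0.0767, edgeR adjusted p = 0.00207). COL2A1, the collagen of cartilage and of the embryonic notochord, stood at 20.7, 22.5, 18.9 and 18.6 CPM at passage 27 and at 36.6, 39.5, 28.6 and 29.7 CPM at passage 31. Its vehicle and RANKL wells were the higher ones at both of these passages, and the passage difference was 0.74 (SE 0.0894, edgeR adjusted p = 0.000478). These wells were not the higher pair at passage 29 (19.98, 18.46, 19.18 and 16.05 CPM in the same order) or passage 30 (22.35, 27.56, 27.69 and 25.32 CPM). LRP2, or megalin, an endocytic receptor of the developing forebrain, went from 16.2 ± 1.69 to 24.8 ± 1.59 CPM (0.62), and was named after its value was seen. LYPD1, a GPI-anchored protein of the nervous system, went from 15.2 ± 1.20 to 24.8 ± 2.96 CPM (0.71). LIX1 had 0.67, and IRX1, a homeobox factor, 0.83.

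At lower levels, the LIM homeobox gene LHX5 went from 2.68 ± 0.562 to 5.66 ± 1.15 CPM, a log2 fold change of 1.08 (SE 0.220, edgeR adjusted p = 0.0316). LHX5 is outside the rule for named genes and was named after its value was seen. The adhesion receptor ADGRG1 went from 4.68 ± 0.998 to 9.20 ± 1.31 CPM (0.98). The calls of FEZF1 and COL2A1 held without each library in turn. That of LRP2 was lost without an OPG or a vehicle library, that of LYPD1 without an OPG library, and that of LIX1 held only without a RANKL library. The call of ADGRG1 held only without the passage 27 RANKL library, and those of LHX5 and IRX1 were lost with any library left out. After the correction LHX5 (edgeR adjusted p = 0.0645) and IRX1 (0.100) were no longer called. Of 21 neural and anterior genes tested, FEZF1 was called higher and PTPRZ1 lower, beside 0.48% of all genes called, and the median was 0.02. OTX2 and ZIC2, transcription factors of the anterior embryo, had 0.13 and 0.02. LHX5 and its antisense neighbour, like FEZF1 and FEZF1-AS1 (10.3 and 14.8 CPM), share a locus on opposite strands.

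**Figure D3:**
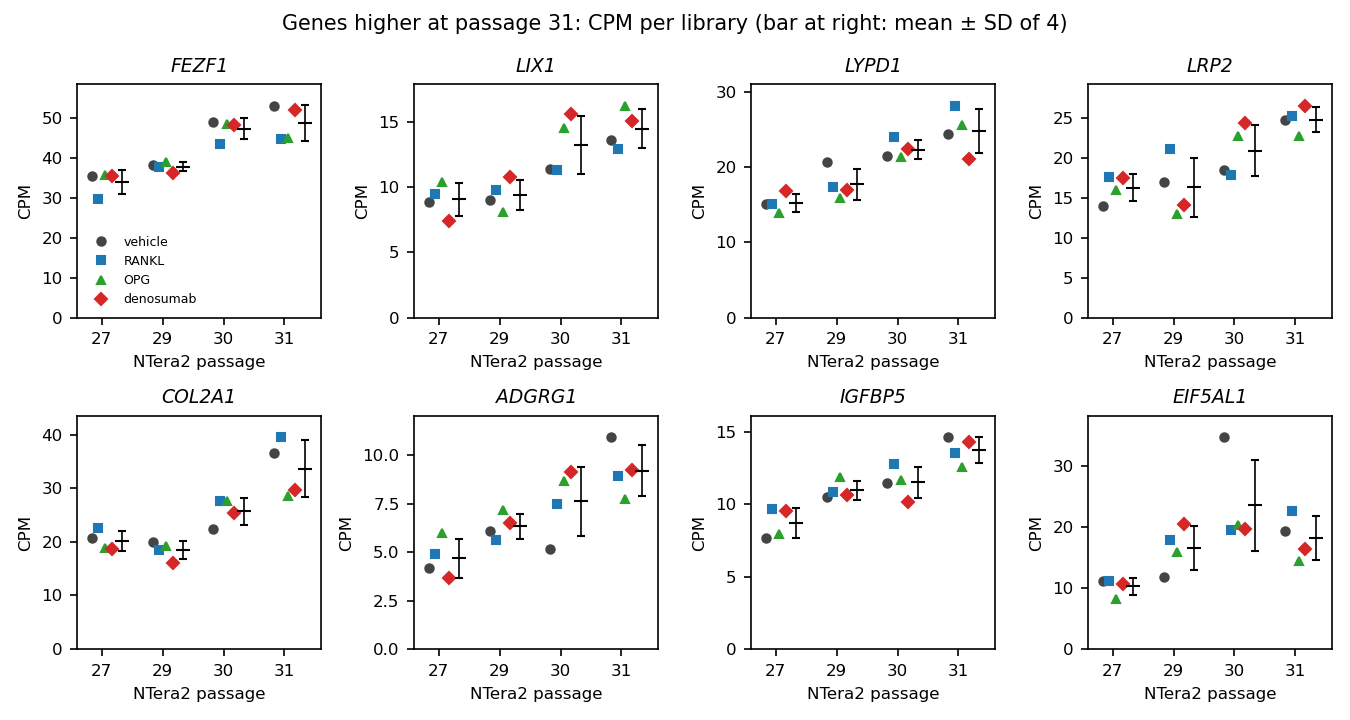
CPM (y axis, from 0) of 8 genes called higher at passage 31 in each NTera2 library by passage (x axis), drawn as in the plot of pluripotency genes. All 4 libraries of passage 31 lie above all 4 of passage 27 in each panel, and EIF5AL1 has its highest value, in the vehicle library, at passage 30.

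Growth factor and stress genes gave a few further calls. The counts by list that follow stand beside 0.246% of all genes called higher. IGFBP5, an insulin-like growth factor binding protein, went from 8.71 ± 1.03 to 13.8 ± 0.906 CPM (0.67), and IGFBP2, its neighbour on chromosome 2, from 339 ± 33.8 to 406 ± 45.1 CPM (0.26). They were 2 of 13 tested genes of that axis, whose median was -0.01. FZD7, a WNT receptor, had 0.28 and was the 1 called of 18 WNT feedback genes and targets. The p53 targets PHLDA3 (72.2 ± 5.04 and 92.6 ± 5.96 CPM), which restrains AKT, and FDXR (37.7 ± 5.38 and 48.0 ± 6.72 CPM), a ferredoxin reductase, were 2 of 23 in their list, whose median was 0.11, or 0.04 after the GC and length correction. CDKN1A, the p53 target that halts the cell cycle, had 0.11 (edgeR adjusted p = 0.669). The calls of FZD7, PHLDA3 and FDXR were lost after the correction, at adjusted p of 0.0590, 0.0645 and 0.250 in edgeR. JUND, an AP-1 subunit, the amino acid transporter SLC7A5, the glycolytic enzyme ENO2 and the interferon-induced BST2 were each the 1 called of their lists, with log2 fold changes of 0.42, 0.23, 0.20 and 0.26. They too were not called after it, with adjusted p of 0.291, 0.145, 0.0677 and 0.273. Without an OPG library JUND was the 1 gene of this paragraph still called. Without a vehicle library PHLDA3 alone was, without a RANKL library JUND, ENO2, BST2 and FDXR were lost, and without a denosumab library JUND, SLC7A5 and FZD7 were lost.

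Ribosomal protein pseudogenes were among the largest called increases. RPL7P9, RPS15P4, RPL41P2, RPL13AP25, RPSAP12, RPL18AP3 and RPS27P8 were called higher, with log2 fold changes of 0.49 to 1.07, as was EIF5AL1 (0.83), a copy of EIF5A. RPSAP12 and RPL18AP3 are outside the rule for named genes and were named after their values were seen. RPL7P9, for example, stood at 7.51, 7.59, 6.41 and 7.34 CPM at passage 27 and at 11.9, 13.6, 10.3 and 10.8 CPM at passage 31. Their parent genes were not called: RPL7 had 0.12, RPL13A 0.11, RPS27 0.22 (edgeR adjusted p = 0.0594) and EIF5A 0.01. In the list of cytosolic ribosomal proteins 0 of 31 were called by edgeR, and 29 were positive with a median of 0.06. After the GC and length correction 20 were positive and 11 negative, the median was 0.04, and 1 was called higher. Reads of 52 bases can match a parent and its copies, so the values of the pseudogenes are uncertain. The calls of the 7 pseudogenes were lost after the correction, with adjusted p of 0.0519 to 0.252, and that of EIF5AL1 held. Without an OPG library none of these 8 was called, and without a RANKL library EIF5AL1 alone was. Without a vehicle library EIF5AL1 and 3 of the 7 pseudogenes were called.

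Most lists had no called member. As 0.48% of all genes were called, 0 is also the usual count for lists of this size and says little about them. Of 25 genes of S phase and mitosis 0 were called by edgeR, with a median of 0.01, and the same count of 0 held for 12 replication-dependent histones, 16 heat shock genes, 15 unfolded protein response genes, 15 YAP and TEAD targets and 23 nuclear respiratory chain genes. Of 13 genes of the RANKL axis 0 were called. TNFRSF11A, which encodes RANK, stood at 7.79 and 7.04 CPM at passages 27 and 31. TNFSF11, which encodes RANKL, stood at 1.98 and 1.77 CPM, and TNFRSF11B, which encodes OPG, at 1.87 and 1.88 CPM. Counts at an unadjusted p under 0.05 were 2126 of all genes, 1149 higher and 977 lower.

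**Figure D4:**
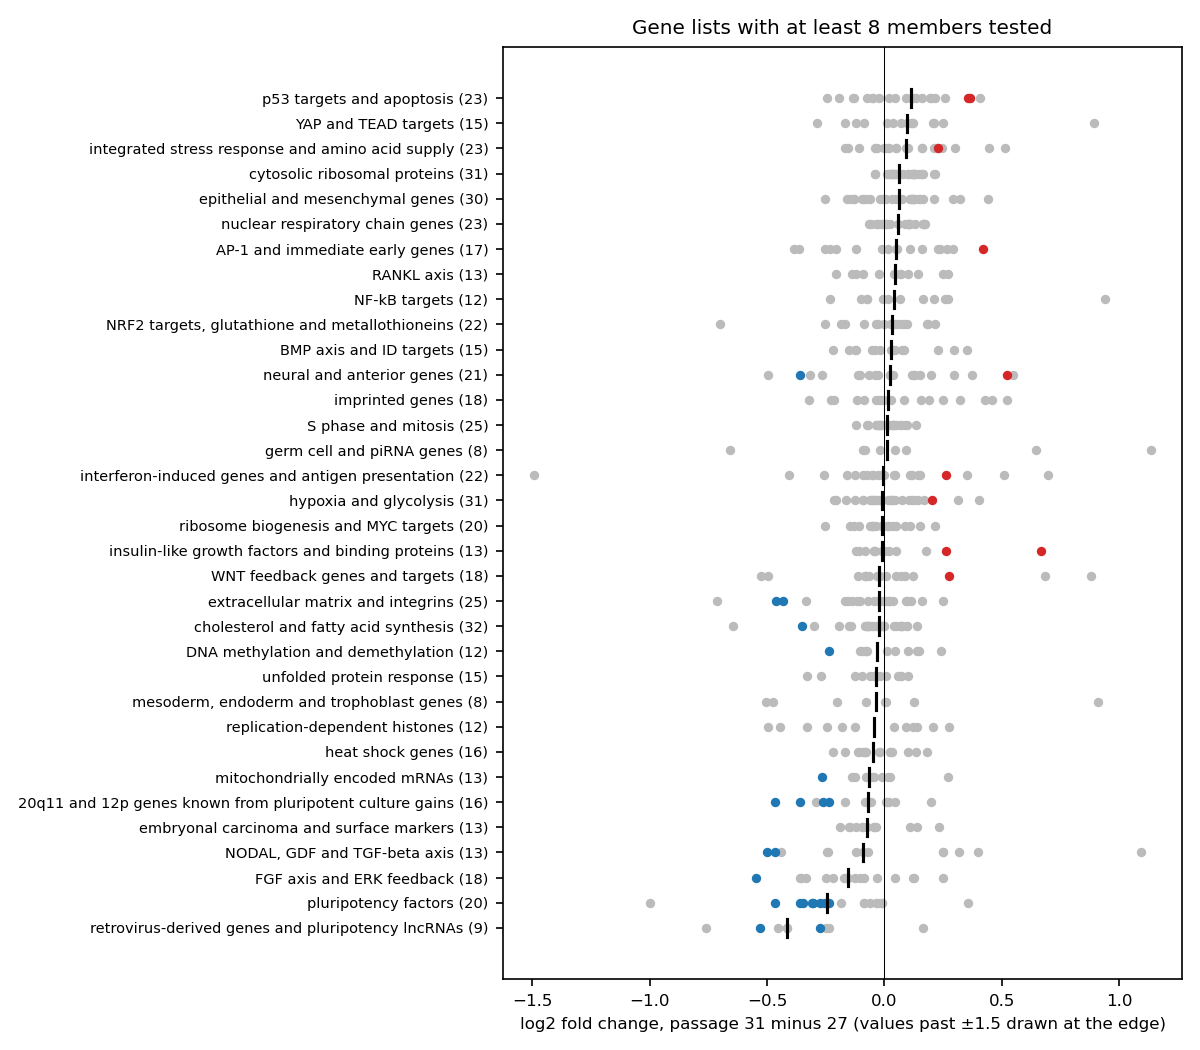
Log2 fold change of passage 31 minus passage 27 (x axis) for the tested members of each list with at least 8 of them (y axis, number in brackets), with called members in blue (lower) or red (higher) and the median as a black bar. The lists of retrovirus-derived genes and of pluripotency factors have the most negative medians, and the medians of most other lists lie within 0.1 of 0.

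Passages 29 and 30 were used to see where the difference arose. From passage 27 to 29, 1712 of 17351 genes were called (9.87%), from 29 to 30, 5 (0.0288%), and from 30 to 31, 5 (0.0288%), in an edgeR fit of all 16 NTera2 libraries. The counts differed after the GC and length correction: 75 genes were then called from 27 to 29, and 22 and 13 in the later steps. The median of the pluripotency list was -0.07 in each of the 3 steps. Of the 80 genes called between 27 and 31, 71 (88.8%) had the same direction from 29 to 30, a step that shares no library with the comparison, beside 51.0% of all genes tested. After the correction the figures were 70 of 80 and 55.5%. By single genes the step from 29 to 30 was small, and ETS1, a transcription factor, was the 1 of the 80 called in it (-0.40, edgeR adjusted p = 0.0438, named after its value was seen).

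The called genes followed different courses. Mean levels ran in order over passages 27, 29, 30 and 31 in 44 of the 80 (55.0%), beside 7.9% of all genes tested, but the 80 were chosen for extreme values at both ends. In 42 of the 80 (52.5%) passages 29 and 30 were both nearer to 31, beside 46.8% of all genes, and in 9 (11.2%) both were nearer to 27, beside 27.0%. L1TD1 had its whole difference by passage 29, with means of 620, 482, 501 and 499 CPM over the 4 passages. GDF3 had most of its difference after passage 30, with 151, 139, 139 and 109 CPM, and TNC likewise, with 227, 219, 207 and 168 CPM. Both were called from passage 30 to 31, at log2 fold changes of -0.35 (edgeR adjusted p = 0.00367) and -0.30 (0.00537). NANOG ran in order, with 79.8, 71.0, 66.1 and 61.9 CPM, and so did POSTN, with 10.96, 6.92, 5.92 and 4.84 CPM. DNMT3B was level until passage 29 (1143 and 1141 CPM) and then stood at 1041 and 967 CPM. FEZF1 stood at 34.01 and 37.8 CPM and then at 47.3 and 48.7 CPM, and COL2A1 at 20.2, 18.4, 25.7 and 33.6 CPM.

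**Figure D5:**
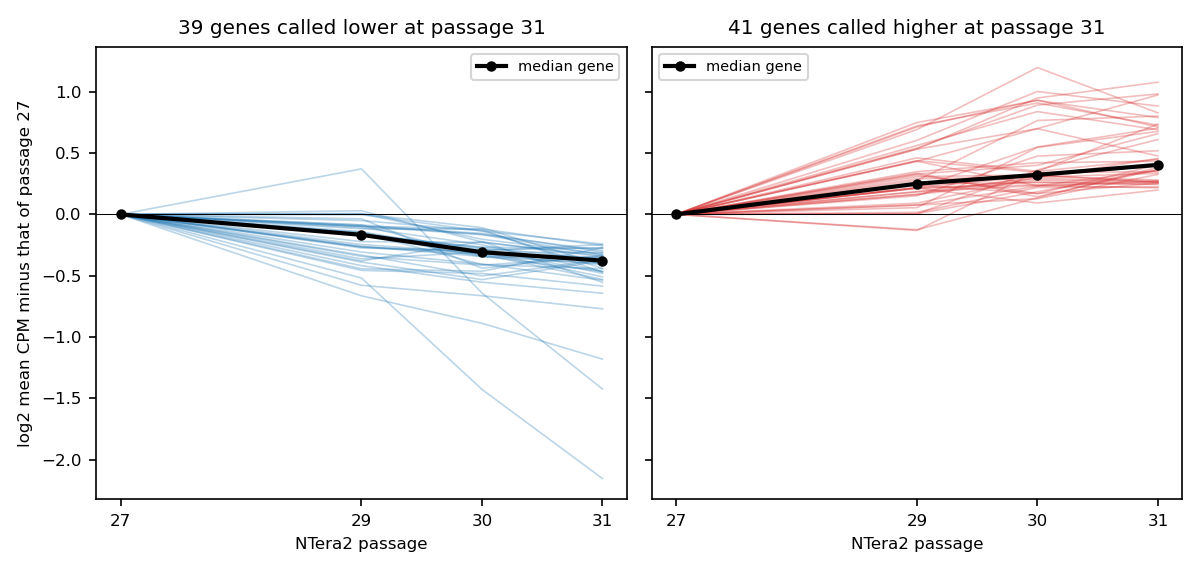
Log2 of the mean CPM of each called gene relative to its mean at passage 27 (y axis) over the NTera2 passages (x axis), for the 39 genes called lower (left) and the 41 called higher (right), with the median gene in black. The median of the lower genes is -0.17, -0.31 and -0.38 at passages 29, 30 and 31, and that of the higher genes 0.25, 0.32 and 0.40.

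The same span of passages was compared in TCam-2, from 118 to 122. There 49 of 15664 genes were called (0.313%), but 0 without the RANKL library of either passage, of which the later had a RIN of 3.7. Of the 80 genes called in NTera2, 69 were tested in TCam-2, 42 of them had the same direction, beside 56.8% of all genes tested in both lines, and 4 were called there. The 4 were IL17RD (-0.65), LRP2 (1.01) and SLC7A5 (0.45) in the direction of NTera2, and ENSG00000269968 (1.39) in the opposite one. The difference between the 2 lines in the passage effect was called for 43 of 18320 genes (0.235%), 8 of them among the 80. FN1 was 0.67 and TNC 0.68 lower in the NTera2 effect than in the TCam-2 effect, which was 0.19 and 0.23 by itself (edgeR adjusted p of the difference 0.00194 and 0.013). ESRG differed by -0.42, DYSF by -0.73, ENO2 by 0.33 and DPYSL5 by 0.68. The others of the 8 were the uncertain ENSG00000269968 and ENSG00000225721. For NANOG (-0.25, edgeR adjusted p = 0.203), GDF3 (-0.43, 0.165) and the other called pluripotency genes except ESRG the difference between lines did not pass. Leaving out 1 library moved the 43 to between 8 and 111.

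Chromosome 12 held 16 of the 80 (8 higher and 8 lower), or 1.7% of the 941 genes tested there beside 0.48% of all genes. Chromosomes 4, 22 and X held 0 by edgeR. Over the autosomes, median log2 fold changes lay between -0.04 (chromosome 4) and 0.05 (chromosome 19). Genes at 20q11 and 12p that are known from gains in pluripotent cultures gave 0 higher and 4 lower calls of 16 by edgeR, beside 0.246% and 0.234% of all genes. The 4 were GDF3, NANOG, CCND2 and DNMT3B, or 3 after the GC and length correction, without CCND2. GDF3, NANOG and DNMT3B are the same calls as in the pluripotency list and not further ones. The others of the 16 did not pass, among them TPX2 with -0.07 and BCL2L1 with 0.20.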

How the data were processed

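Per the labels' protocols, stranded libraries of polyadenylated RNA were sequenced as paired reads of 52 bases. Per the submitters' processing notes, the authors used bcl2fastq 2.20.0, STAR 2.7.9a and featureCounts 1.6.2 with GRCh38/hg38. The deposited values are raw read counts per gene (61541 genes, 61369 matched to the gene name table by identifier). The sources used here give no annotation release and no strand setting. All 32 count columns were matched to samples by title, and 0 were left over.

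Counts were tested in R 4.3.3 with edgeR 4.0.16 (filterByExpr on passage, TMM, robust quasi-likelihood, limma 3.58.1) with treatment as a block in the 8 libraries. Benjamini-Hochberg adjusted p under 0.05 was called. The steps between passages used all 16 NTera2 libraries, and the line difference an interaction term over 16 libraries. Levels are CPM with TMM factors over the 16 NTera2 libraries, and log2 CPM used a prior count of 2. SE is the size of the log2 fold change divided by the square root of F. Same-passage libraries differed by more than counting noise (chi-square per degree of freedom 2.64 to 11.3), and depth sets the precision of low genes. At 10 CPM or more the median SE was 0.0783. The pipeline was tested on simulated data.

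Alternatives were DESeq2 1.42.0, RLE factors, other filters, other fits, no block and each library left out. Added after seeing the data were lowess offsets for GC content (98.6% of tested genes had one, from GENCODE v29 transcripts) and length, and a fit of the vehicle and OPG libraries.

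The comparison, the 40 gene lists and the naming rule were chosen with earlier results of these data known. The rule takes the 12 largest called changes per direction (same direction in all 4 treatments, 5 CPM or more), up to 4 called members per list and direction, the 2 highest members of lists without a call, and TNFSF11, TNFRSF11A and TNFRSF11B. Treatments pair the libraries by design. Deviations of same-treatment libraries from their passage means correlated at 0.23 (vehicle), 0.005 (RANKL), 0.008 (OPG) and 0.016 (denosumab).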

Additional observations from a re-analysis of the deposited data

Results flagged for a closer look

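A library far from the other 3 of its passage was found in 9 of 180 groups checked, and chance gives about 1 in 20. TNFSF11 was highest at 3.02 CPM in the passage 31 RANKL library, KIT at 32.0 CPM in the passage 27 denosumab library, TFAP2C at 27.9 CPM in the passage 27 RANKL library and GSTP1 at 913 CPM in the passage 27 vehicle library. In the passage 31 vehicle library KRT8 (880 CPM), BST2 (225 CPM) and IGFBP2 (473 CPM) were highest. FEZF1 was lowest at 29.6 CPM in the passage 27 RANKL library, and the passage 31 RANKL library had the fewest genes with counts of its passage, 22364.

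The passage effect differed between the lines, by the edgeR interaction test, for 5 named genes. NTera2 minus TCam-2 gave -0.731 for DYSF, -0.666 for FN1, -0.68 for TNC, -0.425 for ESRG and 0.327 for ENO2 on the log2 scale.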

How the results depend on the processing

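For passage 31 against 27, 80 genes by edgeR became 111 with DESeq2 and 261 with every gene of at least 1 count. They became 39 without the replicate block, all of them among the 80, and 193 in the vehicle and OPG libraries alone. With 1 library left out the count ran from 13 to 111. From passage 27 to 29, 1712 became 1076 without the block, 75 with the correction for GC content and length, and 729 to 1594 with 1 library left out. From 29 to 30, 5 became 31 (DESeq2), 32 (every gene counted), 3 (no block), 2 (8 libraries), 22 (corrected) and 0 to 11. From 30 to 31, 5 became 61, 77, 3, 0, 13 and 1 to 106 in the same order, the 106 without the passage 30 vehicle library. In TCam-2, 49 became 138 with DESeq2, 228 with every gene counted and 0 to 172 with 1 library left out. The line difference of 43 genes became 126, 148 and 8 to 111. The cause of these shifts was not tested. Of 42 named called genes, 0 changed direction, and 33 lost their call with at least 1 library left out. Counts and fold changes of genes at a few CPM are limited by depth, and 1 experiment per passage limits all of them.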

Other observations

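Further called genes fell outside the naming rule and were named after their values were seen. Among the lower ones were NID1, a basement membrane protein (101 ± 1.01 and 80.5 ± 7.42 CPM at passages 27 and 31), ITPR2, a calcium channel of the endoplasmic reticulum (38.3 ± 2.32 and 28.8 ± 2.16 CPM), LPAR3, a receptor for lysophosphatidic acid (30.6 ± 3.06 and 23.04 ± 2.39 CPM), and VASH2 (110 ± 2.21 and 89.2 ± 1.82 CPM). Among the higher ones were PLIN2, a lipid droplet coat protein (99.3 ± 4.06 and 128 ± 11.2 CPM), PMEL, the pigment cell amyloid protein (121 ± 9.75 and 156 ± 9.25 CPM), DPYSL5, a protein of growing neurites (162 ± 8.54 and 188 ± 5.76 CPM), and the transcriptional coregulator CITED2 (35.4 ± 5.95 and 47.8 ± 5.55 CPM). NID1, LPAR3, VASH2, PLIN2, PMEL and CITED2 were called after the GC and length correction, and ITPR2 and DPYSL5 were not.

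Ribosomal protein pseudogenes as a class were gathered by name after the called ones had been seen. Of 303 tested, 7 were called higher and 0 lower by edgeR, beside 0.246% and 0.234% of all genes, and the 7 are those that led to the class. A positive log2 fold change was found in 266, beside 8535 of all 16681 genes. The median was 0.47, or 0.31 after the correction, beside 0.06 for the 31 parent-type genes listed.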
